A study of Mus musculus with 12 samples.

Results

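The 8 genes Rbfox1, Rbfox2, Rbm20, Rbm24, Mbnl1, Mbnl2, Celf1 and Celf2 encode RNA-binding proteins that regulate alternative splicing in striated muscle. They were followed in the atria of mice carrying a Tbx3 transgene activated by Cre, per the labels. Every probe annotated to a member, under its current or an older symbol (A2bp1 for Rbfox1, Rbm9 for Rbfox2, Cugbp1 and Cugbp2 for the CELF genes), was taken, which gave 17 probes of the 46114 on the arrays. The probes belonged to 6 of the 8 genes. No probe carried the symbol Rbm20 or Rbm24 in the annotation used here, and these 2 genes were not analysed here. The set was chosen on the levels in this same comparison, around the difference seen in Rbfox1, so the values of all members in that comparison are given as a description. The share of member probes past the threshold is set beside that of all probes, and nothing is read from it.

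RBFOX proteins bind the sequence element UGCAUG in introns beside alternative exons and promote or block the inclusion of those exons according to the side on which they bind. MBNL (muscleblind-like) and CELF proteins act on many of the same muscle transcripts, often in opposite directions, and their balance shifts during heart development and in myotonic dystrophy. RBM20 represses exons of the titin transcript, and RBM24 promotes inclusion of muscle exons. Rbfox1 is expressed mainly in neurons, heart and skeletal muscle, while its paralogue Rbfox2 is expressed in many tissues.

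RNA came from the atria of 12 male mice and was read on Illumina Sentrix Mouse-6 beadchips, which carry oligonucleotide probes on beads. The Tbx3 group was made up of 6 double transgenic Cre4-CT animals, which combine the Nppa-Cre4 transgene, a Cre recombinase driven from the natriuretic peptide gene Nppa in atrial muscle, with the CT construct, from which Cre activates Tbx3. The Control group was made up of 6 animals with the Cre4 transgene alone, so all 12 animals carried Cre and no group carried CT without Cre. The sources used here give neither age nor background strain, and the effect of the CT construct itself cannot be told apart from that of Tbx3. The transcription factor encoded by Tbx3 acts mainly as a repressor, and it is normally found in the pacemaker and conduction tissue of the heart.

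The tissue label was checked on 11 cardiomyocyte markers, whose mean log2 level was 12.90 to 13.26 in the Tbx3 arrays and 13.29 to 13.47 in the Control arrays, against a median of 5.58 over all probes. The atrial light chain gene Myl7 averaged 14.22 in Tbx3 and 14.47 in Control. The brighter probe of Tbx3 itself averaged 6.18 ± 0.18 in Tbx3 and 6.59 ± 0.21 in Control (SD, n = 6 each), a log2 change of -0.42 that passed as lower in the Tbx3 group (adjusted p = 0.0263). The other Tbx3 probe averaged 5.44 ± 0.23 in Tbx3 and 5.42 ± 0.15 in Control, a log2 change of 0.02 (adjusted p = 0.982). Neither probe was called higher in the Tbx3 group. Where the probes lie relative to the transgene is not stated in the sources used, so they do not check the labels. Levels are log2 values that take the deposited table as natural logs. Had the authors used base 2, all changes would shrink by a factor of 0.693. A probe is said to have passed when its adjusted p in limma over all 46114 probes was under 0.05.

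Rbfox1 was the member with the large difference, and it was lower in the Tbx3 atria. Its brightest probe, 2370390, lay between 8.14 and 8.75 with a median of 8.45 in the 6 Tbx3 arrays. In the 6 Control arrays it lay between 9.90 and 10.56 with a median of 10.28. Every Tbx3 array was below every Control array, and a gap of 1.15 separated the highest Tbx3 array from the lowest Control array. The mean was 8.43 ± 0.22 in Tbx3 and 10.25 ± 0.28 in Control (SD, n = 6 each). The log2 change was -1.82 (SE 0.12, 95% interval -2.07 to -1.57), a level 3.53-fold lower with an interval of 2.96-fold to 4.20-fold. By its brightest probe Rbfox1 had the 5th most negative change among 17655 genes, which is the difference for which the set was proposed.

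A second Rbfox1 probe, 5550014, gave the same direction at a lower brightness. It lay between 5.35 and 5.76 in the Tbx3 arrays, with a median of 5.66, and between 6.47 and 6.88 in the Control arrays, with a median of 6.67. The groups were again apart, by 0.71, and the log2 change was -1.07 (SE 0.10, 95% interval -1.28 to -0.86), or 2.10-fold lower. Its Tbx3 levels were close to the median of all probes, 5.58, and whether they were above background was not tested.

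The last Rbfox1 probe, 4590593, did not separate the groups. It lay between 5.28 and 5.85 with a median of 5.69 in Tbx3, and between 5.27 and 6.17 with a median of 5.60 in Control. The log2 change was -0.06 (SE 0.13, 95% interval -0.31 to 0.20). Its mean levels, 5.60 in Tbx3 and 5.65 in Control, were close to the median of all probes, 5.58. Whether they were above background was not tested. This probe stood at the 55.8th percentile of brightness in the mean over all arrays, against the 96.6th and 75.6th percentile of the other 2 probes. The mean of all 3 probes changed by -0.98, a smaller value than that of probe 2370390. The 2 dimmer probes, with smaller changes, enter it with the same weight. Where the probes lie along the gene is not stated in the sources used, so which Rbfox1 transcripts each of them reads is unknown.

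**Figure D1:**
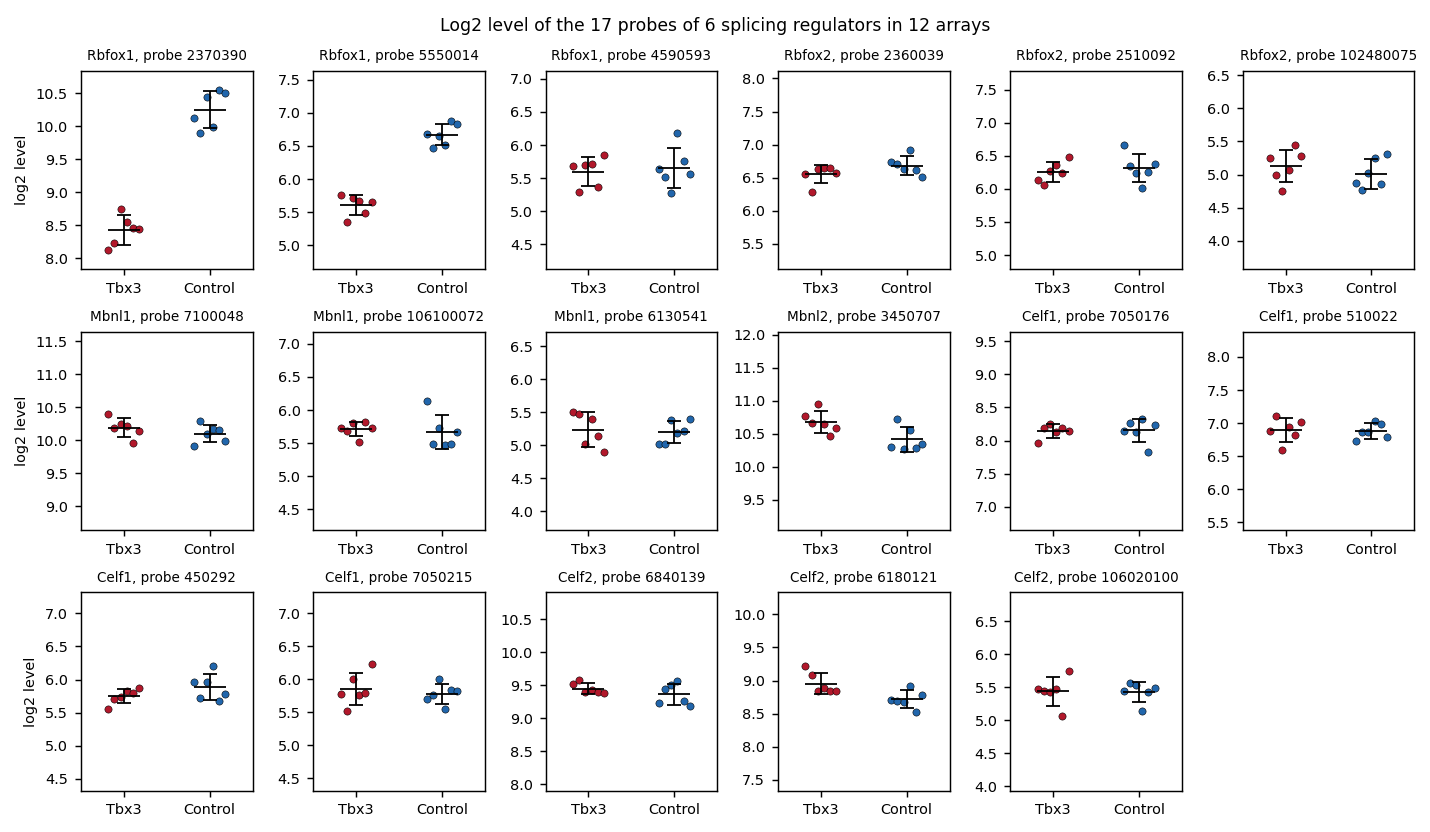
Log2 level (y axis) of each of the 17 probes in the 6 Tbx3 arrays (red, left in each panel) and the 6 Control arrays (blue, right), with the mean and SD in black and every y axis spanning the same number of log2 units. Rbfox1 probes 2370390 and 5550014 show groups that do not touch, and the groups overlap in the other 15 panels.

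The stretches of DNA before the annotated starts of Rbfox1 are shown first because they are the promoter windows of the member that differed. RefSeq (GRCm38.p6) gives an upstream start, with the 250 bases before it at chr16:5884543-5884792, and an internal start, with the 250 bases before it at chr16:7069585-7069834, both on the plus strand. The windows were searched on both strands for the core of the T-box binding element, which reads GGTGTG. On the opposite strand this core reads CACACC. The longer form AGGTGTGA, which contains the core, was searched in the same way. Capitals mark a core match.
Rbfox1 upstream window: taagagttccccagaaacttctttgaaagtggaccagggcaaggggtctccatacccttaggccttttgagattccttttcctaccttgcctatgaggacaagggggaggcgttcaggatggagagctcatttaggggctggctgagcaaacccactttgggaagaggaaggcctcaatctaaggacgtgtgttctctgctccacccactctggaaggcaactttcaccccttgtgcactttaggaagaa
Rbfox1 internal window: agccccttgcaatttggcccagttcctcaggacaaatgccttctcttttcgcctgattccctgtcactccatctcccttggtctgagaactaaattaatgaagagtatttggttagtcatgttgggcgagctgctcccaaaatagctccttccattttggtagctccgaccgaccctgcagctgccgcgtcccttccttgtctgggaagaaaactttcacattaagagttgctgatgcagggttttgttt
Celf2 window with a match: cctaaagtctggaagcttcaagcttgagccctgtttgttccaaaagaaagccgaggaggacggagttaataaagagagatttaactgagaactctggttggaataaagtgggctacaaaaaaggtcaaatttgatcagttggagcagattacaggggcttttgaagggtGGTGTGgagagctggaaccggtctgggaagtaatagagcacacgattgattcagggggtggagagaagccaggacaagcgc
Neither Rbfox1 window held the core, which says only that these letters are not in these 250 bases. The promoter table lists 12 such windows for 6 of the members, Rbm24 among them, and the core was found in 1. That window belongs to an internal start of Celf2 (chr2:7081303-7081552, minus strand), shown above, with the match 81 bases before the start. Among all 32851 windows listed there, 16.3% held the core and 1.12% the longer form. No binding of Tbx3 was measured in these samples.

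Rbfox2, the paralogue that binds the same RNA element, had small differences with intervals that span 0. Its brightest probe, 2360039, lay between 6.28 and 6.65 with a median of 6.60 in Tbx3, and between 6.51 and 6.91 with a median of 6.66 in Control. The groups overlapped, and the log2 change was -0.13 (SE 0.10, 95% interval -0.33 to 0.07). Probe 2510092 had a log2 change of -0.06 (95% interval -0.28 to 0.16). The remaining probe, 102480075, was among the dimmest on the arrays, at the 4.12th percentile, with a log2 change of 0.12 (95% interval -0.13 to 0.36).

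The muscleblind-like genes were bright and had small positive differences. Mbnl1, whose protein represses or enhances exons and is trapped by expanded CUG repeats in myotonic dystrophy, was read best by probe 7100048, at the 98.1st percentile. That probe lay between 9.96 and 10.39 with a median of 10.20 in Tbx3, and between 9.91 and 10.29 with a median of 10.12 in Control. The log2 change was 0.08 (SE 0.10, 95% interval -0.12 to 0.29), and the groups overlapped over most of their range. The other 2 probes of Mbnl1, at the 60.0th and 14.3rd percentile, had log2 changes of 0.05 and 0.04.

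Mbnl2, which has overlapping targets and a larger role in brain, was read by a single probe, 3450707, the brightest of the set at the 98.6th percentile. It lay between 10.46 and 10.94 with a median of 10.66 in Tbx3, and between 10.28 and 10.73 with a median of 10.32 in Control. Most Tbx3 arrays were above most Control arrays, but Control array 2 reached 10.73 and Tbx3 array 5 only 10.46. The log2 change was 0.26 (SE 0.11), with a 95% interval of 0.05 to 0.48 that is not adjusted for the number of probes.

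The CELF genes gave a similar picture of small differences. Celf1, whose protein binds GU-rich elements and is raised in myotonic dystrophy, has 4 probes with log2 changes from -0.14 to 0.07. Its brightest probe, 7050176, lay between 7.96 and 8.25 with a median of 8.17 in Tbx3 and between 7.82 and 8.33 with a median of 8.19 in Control, a log2 change of -0.01 (SE 0.10, 95% interval -0.22 to 0.19). The Tbx3 arrays lay within the Control range.

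Celf2, the relative of Celf1 that is prominent in heart and brain, has 2 bright probes and a dim one. The brightest, 6840139, lay between 9.37 and 9.57 with a median of 9.41 in Tbx3, and between 9.19 and 9.56 with a median of 9.35 in Control, a log2 change of 0.08 (SE 0.10, 95% interval -0.12 to 0.28). Probe 6180121 lay between 8.84 and 9.22 with a median of 8.87 in Tbx3, and between 8.52 and 8.92 with a median of 8.70 in Control, a log2 change of 0.23 (SE 0.10, 95% interval 0.03 to 0.44). In that probe only Control array 4 reached into the Tbx3 range. The dim probe, 106020100, had a log2 change of 0.0036.

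Of the 17 member probes, 2 passed, both of Rbfox1 and both lower in Tbx3, and the same 2 were those whose groups did not overlap. Across all probes 3.45% passed, 1.68% as lower in Tbx3 and 1.77% as higher. The groups did not overlap for 2.27% of all probes, with Tbx3 the lower in 1.16%. Because the set was drawn up from this comparison, nothing is read from these counts. Of the 14 probes outside Rbfox1, the groups overlapped for every probe and 12 had a 95% interval that spans 0. Their changes ran from -0.14 to 0.26, and the bounds of their 95% intervals from -0.35 to 0.48. The median log2 change was 0.01 for the member probes and -0.0010 for all probes. Of the 17 probes 14 were above the median brightness of all probes, and 14 were designed on a RefSeq mRNA and 3 on a cDNA clone, per the platform annotation.

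**Figure D2:**
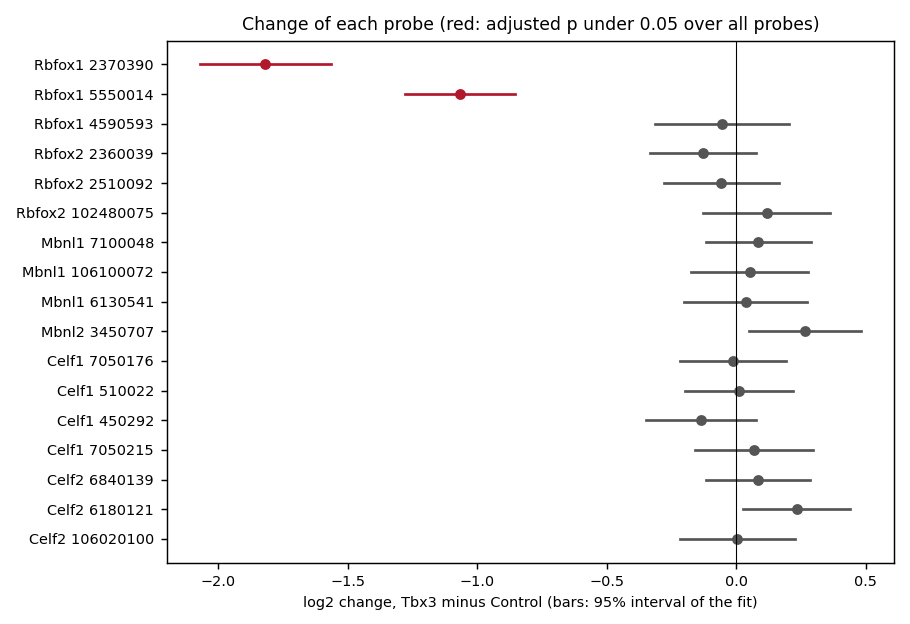
Log2 change (x axis, Tbx3 minus Control) of each probe with the 95% interval of the limma fit, red where the adjusted p over all probes was under 0.05. The 2 red points, at -1.82 and -1.07, are Rbfox1, and the other 15 points lie between -0.14 and 0.26.

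Markers of several cell types differed between the same arrays and are given beside the Rbfox1 values. With the brightest probe standing for each gene, 2.97% of all genes passed as higher and 2.98% as lower. In bulk atria, fewer cells of a type and less RNA per cell cannot be told apart. Of the 11 cardiomyocyte markers 4 fell, among them the natriuretic peptide gene Nppa (log2 change -1.35), Ttn (-0.54) and Ryr2 (-0.46), 7 did not pass, among them Mybpc3 (0.29), Tnnt2 (0.08) and Pln (0.04) with positive changes, and the median log2 change was -0.24. The list mean, given above, was lower in every Tbx3 array than in every Control array, but Nppa weighs heavily in it. Without Nppa the mean of the other 10 was 13.01 to 13.35 in Tbx3 and 13.26 to 13.45 in Control, and the groups overlapped. The markers were very bright, and Myl4 stood at 15.40 in every Control array with an SD of 0. Quantile normalization, used here, gives the brightest probe of every array the same value, so that SD is set by the processing. Changes of such bright markers may be understated, which was not tested. The Rbfox1 level was also taken relative to the mean of all 11 markers, which itself differed by -0.28 between the groups. Probe 2370390 minus the marker mean, a difference of log2 levels, was -4.65 ± 0.24 in Tbx3 and -3.11 ± 0.31 in Control (SD, n = 6 each). The groups differed by -1.54 in this value and did not overlap. For probe 5550014 they differed by -0.79, also with no overlap. For probe 4590593 the difference was in the opposite direction, at 0.22, and the groups overlapped. With the mean of the 10 markers without Nppa, a setting chosen after seeing the data, the differences for the 3 probes were -1.65, -0.90 and 0.12. The set was chosen on the Rbfox1 difference, so these values are a description. The part of cardiomyocytes in the Rbfox1 values was not tested.

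**Figure D3:**
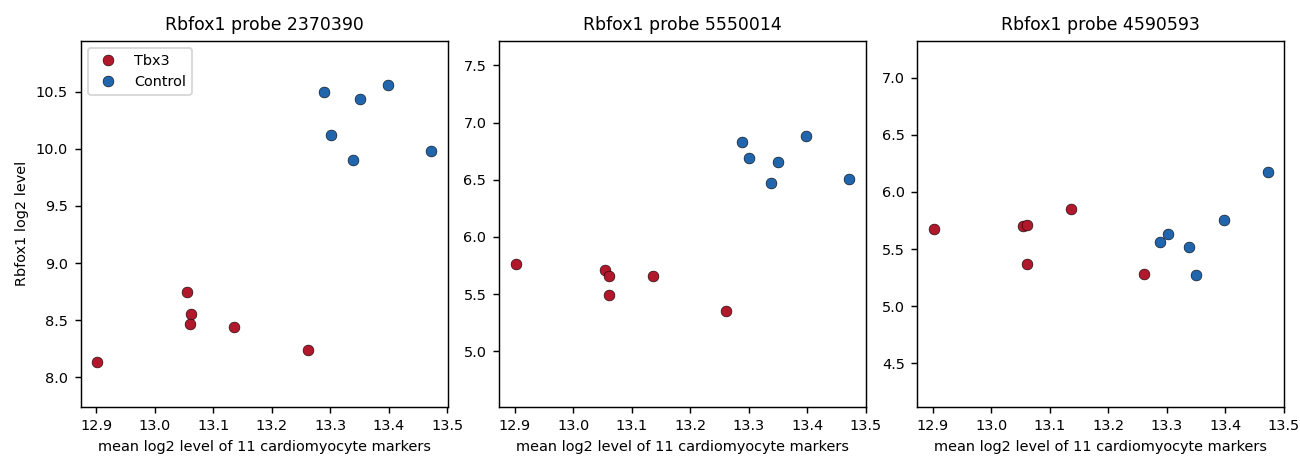
Log2 level of each Rbfox1 probe (y axis, 1 panel per probe) against the mean log2 level of 11 cardiomyocyte markers (x axis), 1 point per array, Tbx3 in red and Control in blue. With Nppa among the markers, the groups separate on both axes for probes 2370390 and 5550014 and on the x axis alone for probe 4590593.

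Skeletal muscle also expresses Rbfox1, and 3 of 10 skeletal muscle markers fell while 0 rose. These were Tnni2, the fast troponin I gene, with a log2 change of -3.28 (SE 0.28, adjusted p = 5.66e-09), Atp2a1, the fast-fibre calcium pump gene, with -1.72 (SE 0.14, adjusted p = 2.8e-09), and Acta1, the skeletal actin gene, with -0.95 (SE 0.22, adjusted p = 0.00885). The Acta1 call was lost with the intensity trend and robust option of limma (adjusted p = 0.231). The other 7 did not pass, 4 of the 10 had positive changes and the list median was -0.08. The list mean, which those 3 genes pull down, was 5.49 to 5.70 in Tbx3 and 6.01 to 6.38 in Control. The fast myosin genes Myh1 and Myh4, the myogenic factor gene Myog and the fast light chain gene Mylpf did not pass, and their probes stood at the 25.1st, 3.48th, 23.0th and 51.6th percentile of brightness, close to or below the median of all probes. The part of these cells in the Rbfox1 result was not tested.

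Neurons are the other main site of Rbfox1. Of 14 neuronal markers 1 rose, Uchl1 (log2 change 0.72, SE 0.10, adjusted p = 4.2e-05), and 0 fell. The list median was -0.04, 6 of the 14 had positive changes and 7 were below median brightness. The list mean was 5.55 to 5.73 in Tbx3 and 5.52 to 5.63 in Control, near the median of all probes in both groups. In other lists, 4 of 12 fibroblast markers rose, among them Dpt (0.88), S100a4 (1.02) and Lum (0.83), with list means of 9.35 to 9.88 in Tbx3 and 9.11 to 9.57 in Control. Of 6 smooth muscle markers 3 rose, Tagln (0.77), Acta2 (0.88) and Myh11 (0.76), with list means of 7.24 to 7.65 in Tbx3 and 6.78 to 7.16 in Control. Of 5 Schwann cell markers 2 rose, Sox10 (0.87) and Pmp22 (0.46), with list means of 7.15 to 7.44 in Tbx3 and 6.85 to 7.07 in Control. Of 9 endothelial markers Esam alone fell (-0.36), with list means of 8.54 to 8.69 in Tbx3 and 8.56 to 8.72 in Control. Of 5 erythroid markers Slc4a1 rose (0.93), with list means of 9.71 to 10.66 in Tbx3 and 8.44 to 10.01 in Control. Of 7 leukocyte markers 0 passed in limma and 2 had an unadjusted p under 0.05, a share not given here for all genes. Their list means were 6.26 to 6.70 in Tbx3 and 6.29 to 6.58 in Control. Leaving out an array ended the call of Esam for 4 of the 12 arrays and that of Slc4a1 for 8. The part of these cell types in the Rbfox1 values was not tested.

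Variation among the arrays of a group was not used to choose the set, and it was examined within each group of 6. The brightest Rbfox1 probe varied more than most probes, with a within-group SD of 0.25, at the 88.9th percentile of all probes. Those of Celf2 (6840139), Rbfox2 (2360039) and Mbnl1 (7100048) varied little, with SDs of 0.13, 0.14 and 0.14, against a median of 0.19 over all probes. The 2 Rbfox1 probes that differed between groups moved together among the Control arrays (Pearson r = 0.91, exact permutation p = 0.0167; Spearman rho = 0.94, exact permutation p = 0.0167; n = 6), and r was 0.66 without the 2 arrays farthest from the median. Among the Tbx3 arrays r was 0.24 (exact permutation p = 0.668; Spearman rho = 0.09, exact permutation p = 0.919; n = 6), and r was 0.84 without the 2 farthest arrays. The difference between the groups in this relation was not tested.

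Rbfox1 and Mbnl2 tended in opposite directions among the Control arrays (Pearson r = -0.83, exact permutation p = 0.0139; Spearman rho = -0.71, exact permutation p = 0.136; n = 6), but r was -0.11 without the 2 farthest arrays, so the relation rests on those arrays. Among the Tbx3 arrays their r was 0.27 (exact permutation p = 0.632; rho = 0.03, exact permutation p = 1; n = 6). The mean of the smooth muscle markers ran against Rbfox1 among the Tbx3 arrays (Pearson r = -0.90, exact permutation p = 0.0236; Spearman rho = -0.89, exact permutation p = 0.0333; n = 6), with r of -0.44 without the 2 farthest arrays, and r was 0.04 among the Control arrays (exact permutation p = 0.943; rho = 0.09, exact permutation p = 0.919; n = 6). Celf2 probe 6180121 gave r = -0.86 among the Tbx3 arrays (exact permutation p = 0.0319; rho = -0.60, exact permutation p = 0.242; n = 6), and r was -0.83 without the 2 farthest arrays. In all, 38 relations of probe 2370390 were computed, with the other 16 member probes and with the means of the cardiomyocyte, fibroblast and smooth muscle markers, in each group. After Benjamini-Hochberg adjustment the smallest p was 0.299, so none of the relations named here held after the correction.

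The genes whose variation was most like that of Rbfox1 were sought with each group centred on its own mean, which removes the difference between the groups. Among genes with a probe above median brightness, the highest Pearson correlations with probe 2370390 over the 12 arrays were those of Rdm1 (r = 0.93), Snrnp70 (0.91), Colgalt2 (0.89), Pigr (0.89) and Wdr7 (0.88). The lowest were those of Eif3b (r = -0.87) and Actn1 (-0.85). Spearman's rho for these 7 genes ran from 0.77 to 0.92 and from -0.84 to -0.83. They are the extremes of a search over many genes on the same 12 arrays, and they are listed as a description. Snrnp70 encodes a protein of the U1 splicing particle and Actn1 an actin crosslinker. Actn1 is the only gene of the 7 that passed between the groups, with a log2 change of 0.52.

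Other regulators of splicing were taken from lists by family and known role. Like all lists used here, they were drawn up with earlier results of these data known. The list called here muscle and neural regulators has 37 measured genes beside the members. It also holds genes not particular to those tissues, such as Esrp1, Esrp2, Pcbp1 and Tardbp. Of the 37, 1 rose, 1 fell and 35 did not pass. Among all genes 2.97% passed as higher and 2.98% as lower when the brightest probe stands for each gene (5.95% in all). By that probe the groups did not overlap for 4.04% of genes, with Tbx3 the lower in 2.15%. The median log2 change was 0.02, against -0.0032 for all genes. Ptbp1 encodes the polypyrimidine tract binding protein, which blocks many neuronal and muscle exons. It rose, with levels of 9.06 to 9.39 (median 9.15) in Tbx3 and 8.61 to 8.92 (median 8.78) in Control. The groups did not overlap, and the log2 change was 0.42 (SE 0.10, adjusted p = 0.00788). Of the 8 probes of Ptbp1, 5 passed, all higher in Tbx3, and the changes of the 8 ran from -0.0027 to 0.65.

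Srpk3, a muscle kinase of SR proteins under control of MEF2 in mouse, fell. It lay between 8.61 and 8.91 with a median of 8.71 in Tbx3, and between 8.90 and 9.44 with a median of 9.34 in Control. The highest Tbx3 array stood just above the lowest Control array, and the log2 change was -0.47 (SE 0.11, adjusted p = 0.0103). Of the 11 cardiomyocyte markers 4 fell in the same arrays, and their part in this fall was not tested.

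The general splicing factors are counted beside all genes, of which 2.97% passed as higher and 2.98% as lower by the brightest probe. The lists are short, and nothing is read from their counts. The shares of all genes with an unadjusted limma p under 0.05 or with a positive change are not given here. Of 14 SR proteins, which bind exonic enhancers, Srsf9 rose, with a log2 change of 0.34 (SE 0.10, adjusted p = 0.0385), 0 fell and 13 did not pass, and the median was 0.08. The Srsf9 groups did not overlap, at 8.28 to 8.65 in Tbx3 and 8.07 to 8.23 in Control. Srsf9 no longer passed when any of 9 arrays was left out, the exceptions being Control 1, Tbx3 1 and Tbx3 2, and its adjusted p reached 0.143 over the alternatives. Of 19 hnRNP proteins, which often act as silencers, 0 passed in limma, 6 had an unadjusted p under 0.05 and 16 had a positive change, with a median of 0.13. The smallest p-values were those of Hnrnpll (log2 change 0.32, SE 0.10, adjusted p = 0.0813, and 0.0416 to 0.604 over the alternatives) and Hnrnph1 (0.28, SE 0.09, adjusted p = 0.116, and 0.0479 to 0.408 over the alternatives).

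Of 32 other genes of the RBM family, named for an RNA-binding motif, 1 fell and 31 did not pass, and the median was -0.04. Among all genes 2.98% passed as lower, and nothing is read from the count. The gene that fell was Rbm19, whose protein acts in the making of ribosomes rather than in splicing. It lay between 6.13 and 6.62 with a median of 6.33 in Tbx3, and between 6.72 and 7.27 with a median of 7.02 in Control. The groups did not overlap, and the log2 change was -0.69 (SE 0.11, adjusted p = 0.000183).

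**Figure D4:**
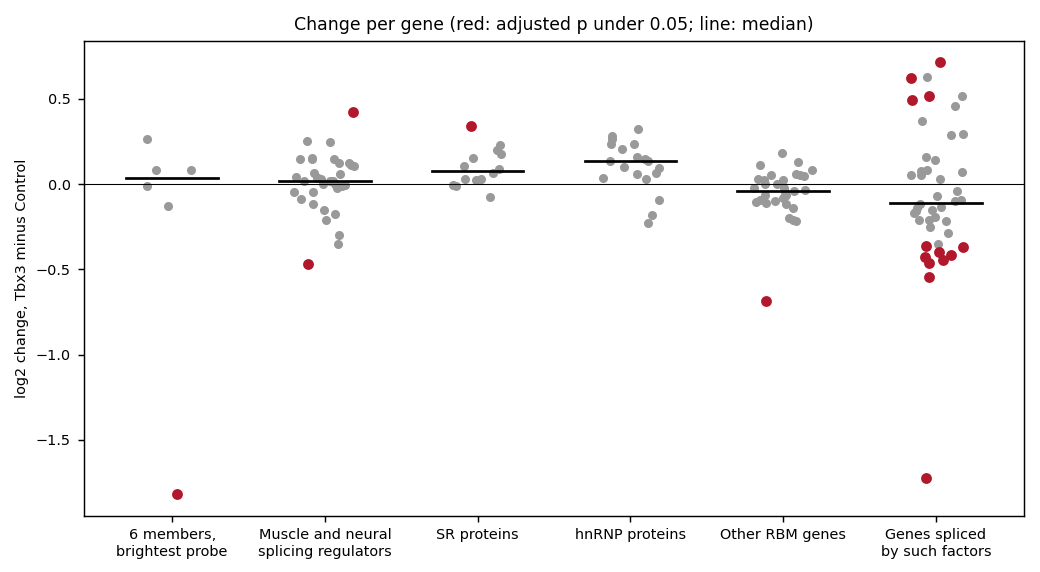
Log2 change (y axis, Tbx3 minus Control) of each gene by its brightest probe, for the 6 measured members and the 5 lists, red where the adjusted p was under 0.05 and with a black line at the median. Rbfox1, at -1.82, stands below every gene of the lists in the plot, the lowest of which is Atp2a1 at -1.72.

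Genes whose transcripts are known to be spliced under these regulators in heart or skeletal muscle were examined for their level. The probes read amounts of RNA and not the inclusion of an exon, so these values say nothing of splicing itself. Among the 44 such genes on the arrays, 4 were called higher and 9 lower, with 31 not passing, and the median log2 change was -0.11. Among all genes 2.97% passed as higher and 2.98% as lower, but that background is not matched for brightness. Only 2 of the 44 were below median brightness, while the background counts dim genes as well. With dim probes left out, more probes passed in each direction than in the main fit. A background of equal brightness was not tested, so nothing is read from the contrast. The 4 genes that rose were Rtn4, a reticulon of the endoplasmic reticulum (0.71, SE 0.10, adjusted p = 3.84e-05), Pdlim7, a Z-disc adaptor (0.62, SE 0.13, adjusted p = 0.00323), Actn1 (0.52, SE 0.11, adjusted p = 0.00425) and the tropomyosin gene Tpm1 (0.49). Beside Atp2a1, Ttn and Ryr2, those that fell were the transcription factor genes Mef2a (-0.43) and Mef2c (-0.45), Nexn (-0.40), Myom1 (-0.42), Dtna (-0.37) and Svil (-0.37). The genes named here outside the smallest p-values, Tpm1, Mef2a, Mef2c, Nexn, Myom1, Dtna and Svil, were added after their values were seen.

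The count of falls among these genes depended on single arrays. It was 4 without Tbx3 array 4 or Tbx3 array 6, 5 without Control array 2, and 3 without Control array 4 and Tbx3 array 6 together, where 6 rose and the median was -0.05. When a gene was read as the average over its probes, 1 rose and 3 fell. Under that setting the calls lost included those of Rtn4, Pdlim7 and Ryr2 (adjusted p of 0.119, 0.382 and 0.854 in limma). In the main fit 1 of 4 probes passed for Mef2a and Mef2c, 1 of 6 for Dtna and Svil, and 1 of 2 for Nexn and Tpm1. Of the 9 genes that fell, Ttn and Ryr2 are also on the cardiomyocyte list and Atp2a1 on the skeletal muscle list, where 4 of 11 and 3 of 10 genes fell, these included. The part of those cells was not tested.

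Titin, CaMKII delta, the Z-disc protein LDB3 and the ryanodine receptor, encoded by Ttn, Camk2d, Ldb3 and Ryr2, are the best known targets of RBM20, and each has several probes. For Ttn 3 of 11 probes fell and 0 rose. The brightest, 102940253, lay between 10.92 and 11.66 in Tbx3, and between 11.40 and 11.93 in Control, a log2 change of -0.54 (SE 0.12, adjusted p = 0.00721). A probe of nearly the same brightness, 103780025, averaged 10.41 in Tbx3 and 11.96 in Control, a log2 change of -1.56 (SE 0.15, adjusted p = 6.74e-08). The 95% intervals of these 2 Ttn probes, -0.80 to -0.29 and -1.87 to -1.25, do not touch. Probe 102940253 was designed on a RefSeq mRNA and probe 103780025 on a cDNA clone, whose place within the gene is not stated in the sources used.

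For Camk2d all 10 probes had negative changes, from -0.56 to -0.0060, and 1 of them passed, probe 106020520 (-0.56, SE 0.12, adjusted p = 0.00674). The brightest Camk2d probe had a log2 change of -0.21 (SE 0.10, adjusted p = 0.423). For Ryr2 the brightest of 4 probes fell, with levels of 11.78 to 12.47 (median 12.06) in Tbx3 and 12.35 to 12.73 (median 12.56) in Control, and a log2 change of -0.46 (SE 0.11, adjusted p = 0.0127). That call was lost without Control array 4 and Tbx3 array 6 together (adjusted p = 0.0543) and at a threshold of 0.01. Averaged over its 4 probes, Ryr2 had a log2 change of -0.07 (adjusted p = 0.854). The other 3 Ryr2 probes were much dimmer and did not pass. For Ldb3 0 of 4 probes passed, all were above median brightness, and the changes ran from -0.09 to 0.20.

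**Figure D5:**
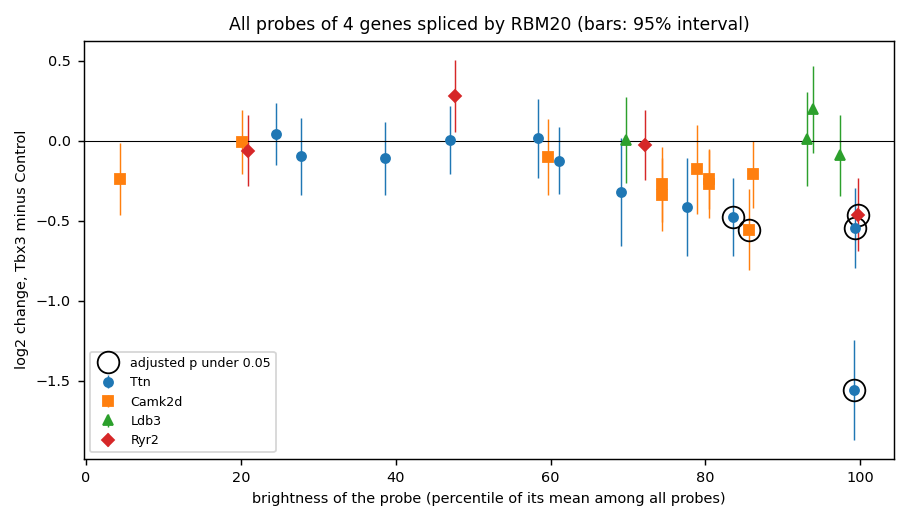
Log2 change (y axis, Tbx3 minus Control, with 95% intervals) of every probe of Ttn, Camk2d, Ldb3 and Ryr2 against the brightness of the probe (x axis, percentile of its mean among all probes), with circles around the probes past an adjusted p of 0.05. The 5 circled probes are 3 of Ttn, the lowest at -1.56, and 1 each of Camk2d and Ryr2.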

How the data were processed

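Total RNA was extracted on columns, amplified and labelled with biotin, per the labels' protocols. The authors deposited a table of log-scale values, 1 per probe and array, taken here as natural log values because the maximum, 10.81, is 49513 on base e, just under the 16-bit ceiling of 65535. Their background step, normalization and choice of base are not stated in the sources used. Of 46133 rows, 10 empty and 9 repeated ones were dropped. The values were rescaled to log2 and quantile-normalized, since interquartile ranges differed by 20.4% (over 10%) between arrays.

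Gene names came from the platform annotation, brought up to date with RefSeq (GRCm38.p6), and 29533 of 46114 probes had 1 symbol. Groups came from the sample titles, and the labels call the arrays biological replicates. Tbx3 was compared with Control in limma 3.58.1 under R 4.3.3 (lmFit and eBayes, 2-sided, Benjamini-Hochberg over all probes, threshold 0.05), tested on simulated data. Precision is limited by how many arrays there are. The members and all lists were chosen with earlier results of these data known. The brightest probe stood for a gene in lists. Named were every member probe, up to 4 passing genes per splicing list (or 2 with the smallest p) and up to 3 per marker list, 4 targets (Ttn, Camk2d, Ldb3, Ryr2) and the extremes of likeness to Rbfox1. Alternatives changed the normalization, log base, dim probes, variance model, weights, block, repeated rows, threshold, probe summary and arrays. Same-numbered arrays of the 2 groups did not deviate together (r from -0.02 to 0.07), so the main fit did not pair them by number. In the order of the series the odd-numbered arrays of both groups come before the even-numbered ones. Whether this order marks a batch was not tested.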

Additional observations from a re-analysis of the deposited data

Results flagged for a closer look

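Of 34 sets of 6 arrays, the 17 member probes in each group, 3 held an array far from the others by Dixon's test at the 95% level, and chance gives about 1 in 20. Rbfox2 probe 2360039 was 6.28 in Tbx3 array 2, where the other Tbx3 arrays lay between 6.55 and 6.65. Mbnl1 probe 106100072 was 6.14 in Control array 1, where the other Control arrays lay between 5.47 and 5.72. Celf2 probe 106020100 was 5.14 in Control array 4, where the other Control arrays lay between 5.43 and 5.56. None of the Rbfox1 probes was among the 3.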

How the results depend on the processing

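The number of member probes that passed, 2 lower and 0 higher, was the same under every alternative run on it, and the change of Rbfox1 probe 2370390 ran from -1.89 to -1.76 with each array left out. It was -1.26 in base 2 and -0.98 as the mean of the 3 Rbfox1 probes. With the replicate block that change was -1.82, the SR protein rise was lost (0) and 7 targets rose, and no other count of calls moved by over 1.5 times. At an adjusted p of 0.01, 462 probes were higher and 434 lower, 0 SR proteins rose, 0 muscle and neural regulators fell and 3 targets fell. With 1 array left out, all probes gave 615 to 845 higher and 593 to 774 lower, SR proteins 0 to 1 risen, muscle and neural regulators 1 to 2 fallen, targets 4 to 6 risen and 4 to 10 fallen, and the hnRNP median 0.0863 to 0.168, the RBM median -0.0484 to -0.0142. Median centring gave 0 SR proteins risen. Leaving out dim probes gave 2 hnRNP genes risen and 2 muscle and neural regulators fallen, and the robust intensity trend gave 2 fallen. Without Control array 4 and Tbx3 array 6 together, 0 SR proteins and 1 hnRNP gene rose, 3 targets fell and 6 rose with a target median of -0.0542, and the hnRNP and RBM medians were 0.179 and -0.00541. The hnRNP median was 0.0927 in base 2 and 0.0558 with genes averaged over probes, where 1 target rose, 3 fell and the target median was -0.0362. No called result changed sign, but small uncalled ones did: 7 member probes (among them Rbfox1 4590593, up to 0.05, Rbfox2 2510092, up to 0.01, and Mbnl1 6130541, down to -0.02), Ldb3 averaged over its probes (0.03), and the median of the muscle and neural regulators with genes averaged over probes (-0.0037). The cause of these shifts was not tested. Dim probes limit what could be seen, and 3 of the 17 lay below median brightness.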
